A study of Mus musculus with 8 samples.

Results

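Siglecs are cell-surface lectins of the immunoglobulin superfamily that bind sialic acid, the sugar that caps many glycans of vertebrate cells. The genes described here are the 8 members of that family named by the rule: Cd22, Siglecg, Cd33, Siglece, Siglecf, Siglec1, Siglech and Siglec15. They were picked by name out of the 24011 named genes of the deposited table, and all 8 were measured, each by the probe set of its Entrez gene. Expression was measured on 1-colour Affymetrix MouseGene ST arrays in bone marrow of adult C57Bl6 mice. The first group, Lin+ cells (4 arrays), is defined by surface antigens of mature blood cells. The second, HSC-enriched cells (4 arrays), is a sorted fraction in which haematopoietic stem cells are concentrated. The sample labels give the HSC-enriched gate as LSK (lineage-negative, Sca-1-positive, Kit-positive), CD105-positive and CD48-negative, whereas the design text names CD150 in place of CD105. Neither group carried a transgene or received a treatment according to the labels, and the labels do not say how many mice gave each sample. Each p-value thus reflects how far these particular samples spread, and that spread may be technical.

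Most Siglecs sit on mature leukocytes, each on its own set of lineages. CD22 and Siglec-G are inhibitory receptors of B cells, CD33, Siglec-E and Siglec-F belong to the rapidly evolving CD33-related branch on myeloid cells, and Siglec-1, or sialoadhesin, is an adhesion receptor of tissue macrophages. The inhibitory members carry tyrosine motifs (ITIMs) in their cytoplasmic tails, which recruit the phosphatases SHP-1 and SHP-2 once Src-family kinases have phosphorylated them. Siglec-H, on plasmacytoid dendritic cells, and Siglec-15, on osteoclasts, signal through the adaptor DAP12 instead.

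Transcripts of the sorting antigens matched the labels, with Kit 9.19-fold higher and Cd48 12.9-fold lower in HSC-enriched cells; since the cells were sorted on these antigens, this is no separate result. Across genes, arrays of a group correlated at 0.978 to 0.986 and arrays of different groups at 0.893 to 0.922. HSC-enriched replicates 3 and 4 stood apart in transcripts of mature cells. The mean log2 level of 14 neutrophil marker genes was 6.70 on replicate 1, 6.63 on replicate 2, 8.88 on replicate 3 and 8.70 on replicate 4. Lin+ arrays had 11.16 to 11.46. The mean level of 12 B cell marker genes was 6.14 on replicate 3 against 4.66 to 4.87 on the other HSC-enriched arrays. Differences of the Siglec genes are therefore also given without replicates 3 and 4. The table has no detection calls, so the 95th percentile of 1091 olfactory receptor genes, a log2 level of 5.09, served as a guide to background.

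Of the 8 Siglec genes, 7 were lower in HSC-enriched than in Lin+ cells, and Siglec15 did not pass the test (limma, Benjamini-Hochberg adjusted p under 0.05 over all genes). Over all genes tested, 12.4% were called lower, 15.5% higher and 27.8% in either direction. All 7 lower genes differed by at least 2-fold and 5 of them by at least 8-fold, where 6.08% and 1.52% of all genes did. The median difference of the 8 genes was -3.36 on the log2 scale, beside 0.02 over all genes. For the same 7 genes every Lin+ array lay above every HSC-enriched array, as it did for 13% of all genes (28.9% of genes showed no overlap in either direction). In bulk samples such as these, fewer cells of a type and less RNA per cell cannot be told apart.

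**Figure D1:**
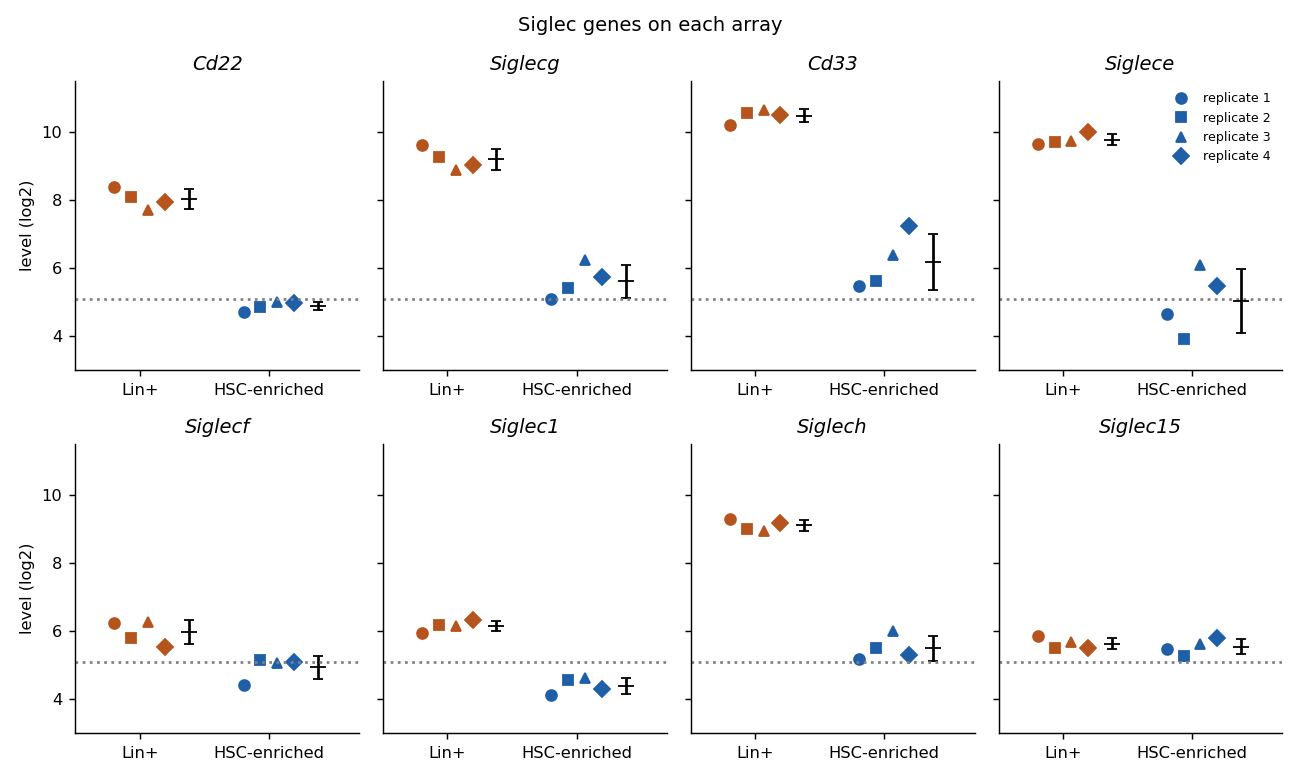
Log2 level of each Siglec gene on the 4 Lin+ and 4 HSC-enriched arrays, with a symbol per replicate, the mean ± SD beside each group (n = 4) and a dotted line at the background guide of 5.09. Lin+ points lie above all HSC-enriched points in every panel but that of Siglec15, and HSC-enriched replicates 3 and 4 are the higher points for Cd33 and Siglece.

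The B cell Siglecs were 8.85-fold and 12.0-fold lower in HSC-enriched cells. Cd22 (Entrez gene 12483), whose product dampens signals of the B cell antigen receptor, was at log2 levels of 8.39, 8.09, 7.70 and 7.95 on Lin+ replicates 1 to 4. On HSC-enriched replicates 1 to 4 it was at 4.72, 4.85, 5.01 and 4.97, all 4 at or under the background guide. The lowest Lin+ array was 2.69 above the highest HSC-enriched array, and the HSC-enriched arrays spread over only 0.29. The fitted difference was -3.14 ± 0.15 (log2, SE; 95% interval -3.48 to -2.81; limma adjusted p = 3.8e-07). Since the HSC-enriched values lie at background, the 8.85-fold difference rests on a level near background.

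Siglecg (243958), which encodes an inhibitory receptor of B cells that also recognises CD24, was at log2 levels of 9.61, 9.27, 8.89 and 9.04 on the Lin+ arrays. The HSC-enriched arrays were at 5.10, 5.41, 6.24 and 5.73. The groups did not overlap, with replicate 3 the highest HSC-enriched array and replicate 1 the lowest. The difference was -3.58 ± 0.24 (adjusted p = 2.4e-06), and -3.95 without HSC-enriched replicates 3 and 4. Among Lin+ arrays, replicate 1 was the highest for both Cd22 and Siglecg, and its 12 B cell markers also had the highest mean level, 9.62 against 9.08 to 9.18. All 12 of these markers were lower in HSC-enriched cells, with a median difference of -4.63. Their largest differences were those of Spib, a transcription factor gene (57.1-fold), and Ms4a1, which encodes CD20 (44.6-fold). In HSC-enriched cells 7 of the 12 had a mean at or under the guide, at a list mean of 4.66 to 6.14. The part of B cells in the Cd22 and Siglecg values was not tested.

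The promoter window of Cd22 is shown because it holds TCCCTGGGGA, in capitals, a match to a motif of the B cell factor EBF1 that was searched as TCCC and GGGA with any 2 bases between them. The match begins at position -49 from the annotated start. The window lies on the minus strand of chr7:30878979-30879278 (RefSeq, GRCm38.p6), runs from 250 bases before the start to 50 bases after it and is written 5′ to 3′.
Cd22: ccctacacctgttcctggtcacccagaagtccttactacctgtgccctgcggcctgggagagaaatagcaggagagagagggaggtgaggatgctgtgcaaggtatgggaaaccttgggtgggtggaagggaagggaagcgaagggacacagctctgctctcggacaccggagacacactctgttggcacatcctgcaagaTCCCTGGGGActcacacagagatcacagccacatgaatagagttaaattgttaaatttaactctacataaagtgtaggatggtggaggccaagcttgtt
Of the 32851 windows of this length that were searched, 0.904% hold this motif on either strand. RefSeq windows were matched for 6 of the 8 Siglec genes. Siglec1 and Siglec15 were not matched, and of the 6 Cd22 alone held this motif. A match of letters is a description and shows no binding.

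The CD33-related myeloid receptors held both the largest differences of the family and, among its called members, the smallest. Siglece (83382), which encodes an ITIM receptor of neutrophils and monocytes, was at log2 levels of 9.65, 9.70, 9.75 and 10.02 on Lin+ replicates 1 to 4. The HSC-enriched arrays were at 4.65, 3.92, 6.10 and 5.48. Replicates 1 and 2 lay under the background guide and replicates 3 and 4 above it, so that the HSC-enriched arrays spread over 2.17 against 0.36 for Lin+ arrays. The difference was -4.74 ± 0.38 (limma adjusted p = 7.9e-06), or 26.7-fold, which ranked 80 from the lowest of 24011 genes. Without HSC-enriched replicates 3 and 4 it was -5.49, or 45.1-fold (adjusted p = 7.0e-07), a fold taken against levels under the guide.

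Cd33 (12489), a classic surface antigen of myeloid cells, was also higher on HSC-enriched replicates 3 and 4 than on replicates 1 and 2. Its Lin+ levels were 10.21, 10.57, 10.66 and 10.49, and its HSC-enriched levels were 5.48, 5.61, 6.40 and 7.24. No HSC-enriched array was under the background guide, and replicate 4 was 1.77 above replicate 1. The difference was -4.30 ± 0.34 (adjusted p = 6.4e-06), or 19.7-fold, and 30.7-fold without HSC-enriched replicates 3 and 4. The 14 neutrophil markers deviated from their mean over the HSC-enriched arrays by -1.03, -1.10, 1.15 and 0.97 on replicates 1 to 4, and the 11 measured monocyte markers by -0.22, -0.32, 0.42 and 0.11. Cd33 deviated by -0.70, -0.57, 0.21 and 1.06 and Siglece by -0.39, -1.11, 1.06 and 0.44. Both were thus below the mean on replicates 1 and 2 and above it on replicates 3 and 4. Cd22 (-0.16, -0.04, 0.13 and 0.08), Siglecg (-0.52, -0.21, 0.62 and 0.11) and Siglec15 (-0.07, -0.27, 0.09 and 0.25) had the same signs. The signs are therefore not particular to the myeloid members, though Siglec1, Siglecf and Siglech did not have them. Both marker lists had these signs as well. Of these markers 13 of 14 and 10 of 11 were lower in HSC-enriched cells (medians -3.80 and -3.45), led by Ly6g (51.8-fold), Mpo (43.7-fold), Clec12a (45.3-fold) and the chemokine receptor gene Ccr2 (34.3-fold). On HSC-enriched arrays the mean of 2 neutrophil and 6 monocyte markers was at or under the guide. Without HSC-enriched replicates 3 and 4, 14 of 14 neutrophil markers were lower (median -5.25), Ly6g by 147.5-fold, and Clec12a was 113.6-fold lower. Since these replicates were left out after they were seen to be the higher ones, larger differences without them follow from that choice. The part of neutrophils and monocytes in these values was not tested.

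**Figure D2:**
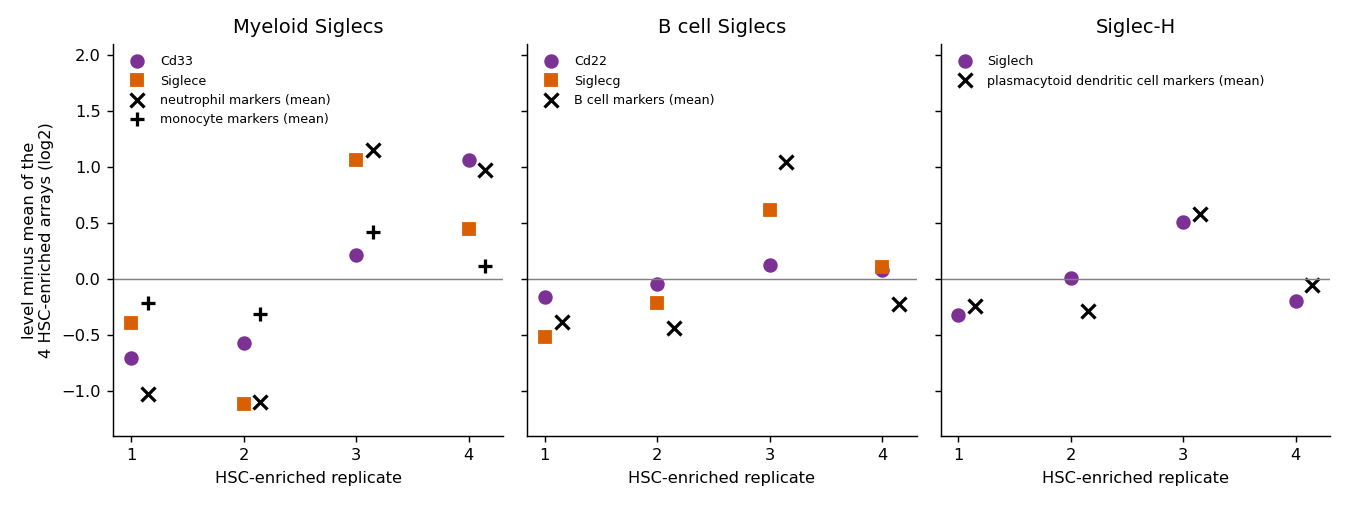
Deviation of each HSC-enriched array from the mean of the 4 HSC-enriched arrays (log2) for Cd33, Siglece, Cd22, Siglecg and Siglech. Black crosses give the mean of marker genes of the cells known to carry them. Siglec1, Siglecf and Siglec15 are not shown. Cd33, Siglece and the neutrophil markers are below 0 on replicates 1 and 2 and above 0 on replicates 3 and 4, Siglecg and Siglech are highest on replicate 3, and Cd22 deviates by -0.16 to 0.13.

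Siglecf (233186), which encodes a receptor of eosinophils that promotes their death, showed the smallest called difference. It was at log2 levels of 6.24, 5.80, 6.26 and 5.53 in Lin+ cells and 4.42, 5.14, 5.05 and 5.09 in HSC-enriched cells. The groups were separated by 0.39 only, and 2 of the 4 HSC-enriched arrays were at or under the guide. The difference was -1.03 ± 0.21 (95% interval -1.495 to -0.57; adjusted p = 0.0035), or 2.05-fold. All 8 measured eosinophil markers were lower too (median -2.15), led by Prg2, the gene of eosinophil major basic protein (45.3-fold), and Cebpe, a granulocyte transcription factor gene (15.6-fold). The mean of 6 of these 8 markers was at or under the guide in HSC-enriched cells. The list mean was 6.53 to 7.13 on Lin+ arrays against 4.27 to 4.73 on HSC-enriched arrays. Among Lin+ arrays it was lowest on replicate 1 and highest on replicate 4, whereas Siglecf was lowest on replicate 4. On HSC-enriched replicates 1 to 4 Siglecf deviated from its mean by -0.50, 0.22, 0.12 and 0.17. The eosinophil markers deviated by -0.04, -0.18, 0.28 and -0.07. The part of eosinophils in the Siglecf values was not tested.

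The promoters of Cd33 and Siglecf are shown because they hold the longest run of bases shared between windows of different Siglec genes. Both are from RefSeq (GRCm38.p6), Cd33 on the minus strand at chr7:43533122-43533421 and Siglecf on the plus strand at chr7:43351091-43351390. Capitals mark the longest run that both share and the RUNX core TGTGGT.
Cd33: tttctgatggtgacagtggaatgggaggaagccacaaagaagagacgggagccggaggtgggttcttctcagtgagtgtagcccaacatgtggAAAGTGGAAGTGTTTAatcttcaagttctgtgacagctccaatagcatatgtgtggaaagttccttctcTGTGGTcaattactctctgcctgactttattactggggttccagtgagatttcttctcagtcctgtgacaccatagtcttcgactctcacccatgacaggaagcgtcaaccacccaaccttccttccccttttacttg
Siglecf: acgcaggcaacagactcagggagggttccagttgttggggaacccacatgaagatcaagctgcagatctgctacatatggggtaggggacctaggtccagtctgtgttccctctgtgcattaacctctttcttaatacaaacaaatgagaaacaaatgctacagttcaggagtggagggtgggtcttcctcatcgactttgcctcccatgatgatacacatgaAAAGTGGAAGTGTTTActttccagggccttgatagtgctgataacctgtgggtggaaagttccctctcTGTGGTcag
The shared run of 16 bases, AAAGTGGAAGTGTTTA, holds the ETS core GGAAGT. It begins at position -157 from the annotated start in Cd33 and at -27 in Siglecf, and among the 27025 genes with a window only Siglecf and Cd33 have it. Other pairs of member windows shared at most 10 bases in a row. A local alignment of these windows spans 134 columns, of which 70.1% are identical. The ETS core alone occurs in 23.8% of all windows and the RUNX core in 16.8%, on either strand. Siglech has both, and a C/EBP match, on the opposite strand. Siglecg and Siglece matched none of the motifs searched, which also included AGATAA, the core of GATA factors (11.2% of all windows), the octamer ATGCAAAT (1.74%) and the C/EBP pattern of TTGC and AA with any 2 bases between them (10.8% of all windows). The motifs were searched on both strands, and the ETS core lies inside the shared run. Between the groups, Cd33 differed by 3.27 more on the log2 scale than Siglecf (exact two-sided permutation p = 0.029, adjusted p = 0.038 over 28 pairs; the smallest p that 70 assignments allow is 0.029).

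Siglec1 (20612), the sialoadhesin gene, was 3.37-fold lower in HSC-enriched cells. Its log2 levels were 5.95, 6.18, 6.14 and 6.31 on Lin+ arrays and 4.11, 4.56, 4.60 and 4.28 on HSC-enriched arrays. Each group was tight, and all 4 HSC-enriched arrays lay under the background guide. The difference was -1.75 ± 0.14 (adjusted p = 6.2e-06). Lin+ replicate 1 was the lowest Lin+ array for Siglec1, and the mean level of the 13 macrophage markers was also lowest there, 6.31 against 6.92 to 7.35. On HSC-enriched replicates 1 to 4 Siglec1 deviated from its mean by -0.28, 0.17, 0.21 and -0.11. The macrophage markers deviated by 0.02, -0.19, 0.09 and 0.08, with the opposite sign on replicates 1, 2 and 4. Of these markers 11 were lower in HSC-enriched cells (median -2.35), led by Slc40a1, the iron exporter gene (16.4-fold), and Hmox1, which encodes haem oxygenase (11.3-fold). In HSC-enriched cells 8 of the 13 had a mean at or under the guide, at a list mean of 4.71 to 4.99. The part of macrophages in the Siglec1 values was not tested.

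Siglech and Siglec15, named above for their signals through DAP12, differed from each other by 3.51 in their group differences (exact two-sided permutation p = 0.029). Siglech (233274), a marker gene of plasmacytoid dendritic cells, was at 9.29, 8.998, 8.93 and 9.17 on Lin+ arrays and at 5.17, 5.50, 6.00 and 5.29 on HSC-enriched arrays (log2). The groups lay 2.93 apart, and HSC-enriched replicate 3 was the highest of its group. The difference was -3.61 ± 0.18 (limma adjusted p = 4.4e-07), or 12.2-fold. Of 10 plasmacytoid dendritic cell markers 8 were lower (median -3.14), led by Klk1 (109-fold) and Ly6d (30.2-fold). The mean level of this list was also highest on replicate 3, at 6.89 against 6.03 to 6.26 on the other HSC-enriched arrays. Lin+ arrays had 9.24 to 9.60. The neutrophil, monocyte, B cell, eosinophil and macrophage lists were highest on HSC-enriched replicate 3 too, so this is not particular to the plasmacytoid dendritic cell list. In HSC-enriched cells 2 of the 10 had a mean at or under the guide, and the part of these cells in the Siglech values was not tested.

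Siglec15 (620235), known for its role in osteoclast formation, was the member without a call. Its log2 levels were 5.86, 5.49, 5.67 and 5.49 in Lin+ cells and 5.47, 5.27, 5.62 and 5.78 in HSC-enriched cells. The groups overlapped, and every array was above the guide. The difference was -0.10 ± 0.14 (95% interval -0.40 to 0.21; adjusted p = 0.70), which does not show that the levels are equal. Of 11 osteoclast markers 3 were lower and 0 higher (median -0.30; limma, adjusted p under 0.05). The largest of these differences, in Mmp9 (21.98-fold, and 44.0-fold without HSC-enriched replicates 3 and 4) and Acp5 (4.43-fold), are in genes that neutrophils and macrophages also express. In HSC-enriched cells 6 of the 11 had a mean at or under the guide: Ctsk, Dcstamp, Oscar, Calcr, Atp6v0d2 and Tnfrsf11a. In Lin+ cells these 6 were under it as well, at means of 3.03 to 4.72. None of them was called, and at such levels the missing calls say little about osteoclast transcripts. Without Lin+ replicate 1, Ocstamp was called higher (difference 0.36, adjusted p = 0.038).

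**Figure D3:**
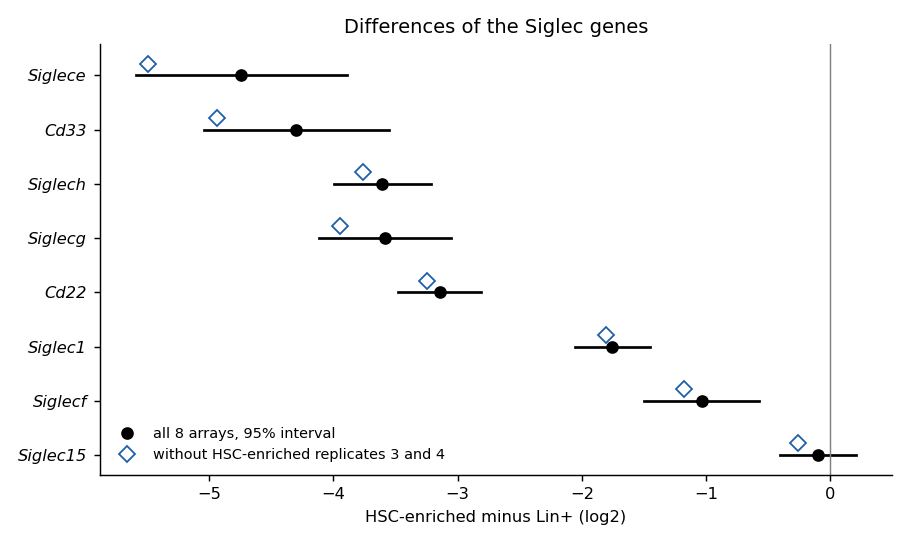
HSC-enriched minus Lin+ difference (log2) of each Siglec gene over all 8 arrays with its 95% interval, and the difference without HSC-enriched replicates 3 and 4 (open diamonds). The interval of Siglec15 includes 0, those of the other 7 genes do not, and the diamonds of Siglece and Cd33 lie farthest to the left, at -5.49 and -4.94.

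The members' differences were unequal in size. Siglece, Cd22, Siglec1 and Siglecf averaged no more than the background guide in HSC-enriched cells, so the size and rank of their differences are limited by background and depend on their Lin+ levels. Ordered by difference they ran Siglece, Cd33, Siglech, Siglecg, Cd22, Siglec1, Siglecf and Siglec15. Each of the 28 pairs was compared by an exact two-sided permutation test of the per-array difference between both genes, and 21 passed at an adjusted p of 0.038. Siglec1, Siglecf and Siglec15 each differed from every other member. Cd22 and Siglec1, neighbours in the order, differed by 1.39 (exact p = 0.029), with all 4 HSC-enriched arrays of both genes at or under the guide. Siglece and Cd33 differed by 0.44 (exact p = 0.34), Cd33 and Siglech by 0.69 (exact p = 0.20), Siglech and Siglecg by 0.02 (exact p = 0.91) and Siglecg and Cd22 by 0.44 (exact p = 0.14). Siglece also passed against Siglecg, Siglech and Cd22, by 1.16, 1.14 and 1.60. Without Lin+ replicate 4, 15 pairs had an unadjusted exact p under 0.05 and 0 of 28 passed the adjustment, at a smallest adjusted p of 0.053.

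In the genome, Siglecf and Siglecg are next to each other among the protein-coding genes of chromosome 7 in the RefSeq annotation. Their differences were unequal by 2.55 (exact p = 0.029). Cd22 is followed there by Mag, the gene of myelin-associated glycoprotein and itself a Siglec, which was at 3.77 ± 0.06 in Lin+ and 3.53 ± 0.23 in HSC-enriched cells (SD, n = 4; log2), under the guide in both. On its other side Ffar1 (-0.16) and Ffar3 (0.10) did not pass, and Ffar2, a short-chain fatty acid receptor gene, was lower by 1.20 (limma adjusted p = 6.1e-06). Nkg7, a cytotoxic granule gene of the Siglecg side of the cluster, was lower by 2.09 (limma adjusted p = 0.00024), whereas Lim2, between both, did not pass (-0.18). Within 3 places on each side of the 8 Siglec genes, 36 other genes were measured, of which 6 were lower and 30 did not pass (limma, adjusted p under 0.05), beside 12.4% lower over all genes. The other called ones were Pstpip2 near Siglec15 (-2.74), Atrn near Siglec1 (-1.41), Zfp658 next to Cd33 (-0.83) and Svip near Siglech (-0.72).

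The genes nearest in pattern were found by the root mean square distance between profiles centred on each gene's mean over the 8 arrays. This distance includes the difference between the groups, so it favours genes with a similar difference. Siglec1 differed by -1.75, and its nearest genes Kdm7a, Gpr155 and Tesk2 by -1.82, -1.89 and -1.75. Likeness apart from the group difference was not tested. Nearest to Cd22 were Rasgrp1 (distance 0.15), Mzb1 (0.16) and Gas7 (0.21), and nearest to Siglecg were Fcrl1 (0.13), Akap12 (0.16) and Ikzf3 (0.19). For Siglech they were Cmah, Fcrl1 and Irf8, at distances of 0.16 to 0.17. Cd33 was closest to Ceacam10 (0.14), Igsf6 (0.15) and Alox5 (0.18), and Siglece to Ccl6 (0.19), Il1f9 (0.26) and Atp8b4 (0.34). Siglec1 was closest to Kdm7a, Gpr155 and Tesk2 (0.10 to 0.12), and Siglecf to Cxcr3, Rara and Tent5a (0.16 to 0.18).

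Of 7 counter-receptor and relative genes of the family, 5 were lower and 1 higher in HSC-enriched cells (median -1.20). Over all genes, 12.4% were called lower and 15.5% higher. Pilra, an inhibitory receptor that binds sialylated O-glycans, was 18.8-fold lower (29.4-fold without HSC-enriched replicates 3 and 4), at 5.60 ± 0.83 against 9.83 ± 0.23 (log2, SD, n = 4). Its activating partners Pilrb1 and Pilrb2 were 8.94-fold and 6.48-fold lower. Spn, which encodes the sialomucin CD43, a ligand of sialoadhesin, rose by a difference of 0.62 ± 0.10 (limma adjusted p = 0.00091), with all HSC-enriched arrays at 9.36 or above and all Lin+ arrays at 9.01 or below. Selplg and Cd24a, named after their values were seen, fell by 1.20 and 0.77.

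Of 16 measured partners of Siglec signalling, 13 fell, 1 rose and 2 did not pass (limma, adjusted p under 0.05; median difference -0.72). Over all genes, 12.4% were called lower and 15.5% higher on all 8 arrays. Without HSC-enriched replicates 3 and 4, 10 of the partners fell and 0 rose. Tyrobp, which encodes DAP12, was at 11.75, 12.04, 11.95 and 11.86 on Lin+ arrays and at 7.07, 6.72, 9.14 and 9.07 on HSC-enriched arrays (log2). HSC-enriched replicates 3 and 4 were the higher ones, as for the neutrophil markers, whose part in the Tyrobp values was not tested. Tyrobp was 14.9-fold lower (adjusted p = 0.00021), and 32.0-fold without replicates 3 and 4. Blnk, the gene of an adaptor of B cell receptor signalling, was 22.3-fold lower and the Src-family kinase gene Fgr 9.68-fold. Ptpn6 and Ptpn11, which encode SHP-1 and SHP-2, differed in result. Ptpn6, named after its values were seen, was lower by 0.95 ± 0.10 but stayed at 8.99 or above on every HSC-enriched array. Ptpn11, at 7.09 ± 0.10 in Lin+ and 7.20 ± 0.15 in HSC-enriched cells, did not pass (adjusted p = 0.52), nor did the kinase gene Fyn (-0.09). Socs3, whose product binds phosphorylated ITIMs and targets Siglecs for degradation, rose by a difference of 0.96 ± 0.22 (adjusted p = 0.0065), but not without HSC-enriched replicates 3 and 4 (0.87, adjusted p = 0.059).

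Among 19 other inhibitory receptor genes of the immunoglobulin superfamily, 15 were lower and 0 higher (limma, adjusted p under 0.05; median -1.14). Over all genes, 12.4% were called lower and 15.5% higher, at a median of 0.02. Lilrb4a had the largest difference, 30.6-fold, with HSC-enriched arrays at 4.75, 3.89, 7.50 and 8.46 (log2). Pirb and Cd300lf, receptors of myeloid cells, were 15.2-fold and 14.6-fold lower. Cd200r1 (0.25) and Mpig6b, an inhibitory receptor of megakaryocytes (-0.002), did not pass. As for Cd33 and Siglece, replicates 3 and 4 were the higher HSC-enriched arrays for Lilrb4a, and Pirb was at 5.58, 5.10, 6.77 and 7.35. Without these replicates Lilrb4a was 108.9-fold and Pirb 27.5-fold lower. The part of mature myeloid cells in these values was not tested.

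**Figure D4:**
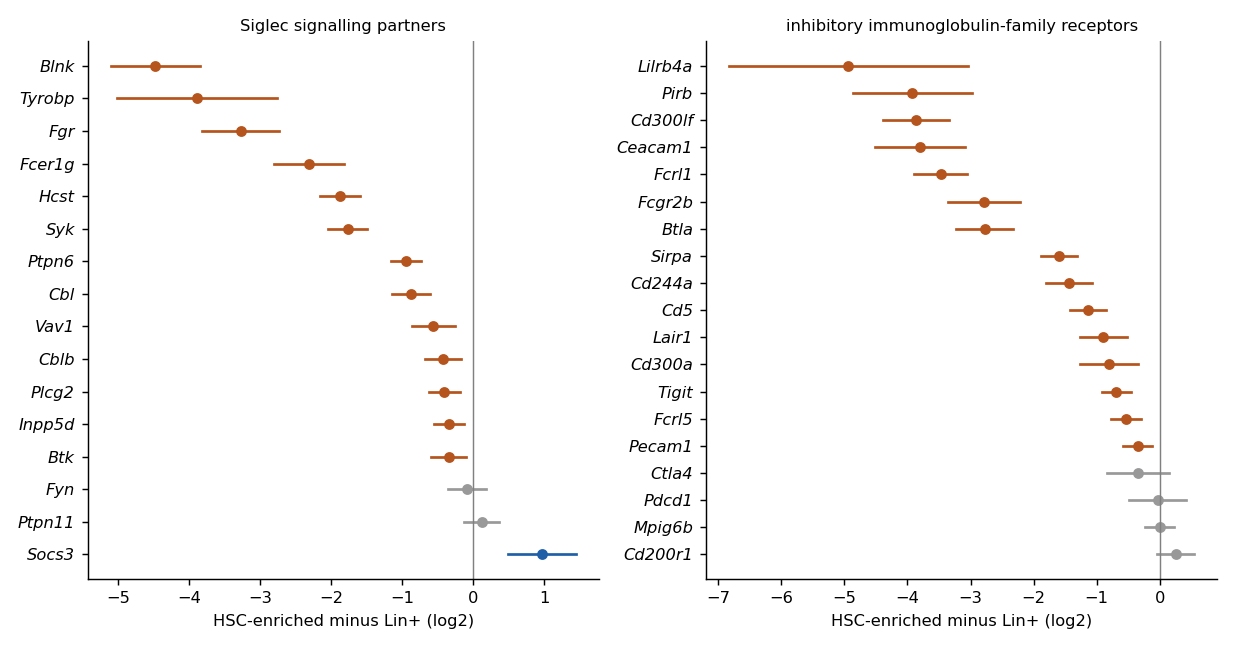
HSC-enriched minus Lin+ difference (log2) with its 95% interval for partners of Siglec signalling (left) and other inhibitory receptors (right), coloured orange where lower, blue where higher and grey where not past an adjusted p of 0.05. Blnk, Tyrobp and Fgr lie farthest to the left among the partners, and Socs3 is the only gene in blue.

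Of 14 genes that supply, modify or remove sialic acid, 5 rose, 2 fell and 7 did not pass (median difference 0.08). The share that fell is near the 12.4% of all genes called lower, and 15.5% of all genes were called higher. Cmah, which encodes the hydroxylase that turns Neu5Ac into Neu5Gc, the form that mouse CD22 prefers, was at 8.19, 8.15, 8.10 and 8.32 on Lin+ arrays and at 4.58, 4.55, 4.90 and 4.53 on HSC-enriched arrays (log2). All HSC-enriched values lay under the background guide, and the gene was 11.7-fold lower (limma adjusted p = 5.9e-08). The lysosomal sialidase gene Neu1 was 2.65-fold lower. In the other direction Npl, the lyase gene that breaks down free sialic acid, was 4.78-fold higher, at 7.40 ± 0.35 against 5.14 ± 0.28. Casd1, which adds O-acetyl groups to sialic acid, and Siae, which removes them, were 1.91-fold and 2.74-fold higher. Gne (-0.19), the enzyme gene of the first committed step, and Nans (-0.01), that of a later one, did not pass.

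Sialyltransferase genes, which build the glycans that Siglecs bind, included 5 of 20 that rose, 5 that fell and 10 that did not pass (median 0.10), beside the same 15.5% and 12.4% over all genes. St6gal1, the enzyme gene of the alpha-2,6-linked sialic acid that CD22 recognises, was at 8.89, 8.72, 8.72 and 8.74 on Lin+ arrays. It was at 4.99, 4.72, 5.73 and 4.42 on HSC-enriched arrays, highest on replicate 3. The B cell markers were also highest there, as were the neutrophil, monocyte, macrophage, eosinophil and plasmacytoid dendritic cell markers. The difference was -3.80 ± 0.23 (limma adjusted p = 1.5e-06), or 13.9-fold. St3gal5, the GM3 ganglioside synthase gene, and St3gal6 were 7.56-fold and 3.15-fold lower. St6galnac6, St3gal1, which caps core 1 O-glycans, and St6galnac3 were 2.14-fold, 2.005-fold and 1.85-fold higher. St3gal4 (0.04) and St3gal2 (-0.15) did not pass. Without HSC-enriched replicates 3 and 4 the rising genes numbered 3, as St6galnac4 (0.57, adjusted p = 0.052) and St8sia2 (0.47, adjusted p = 0.067) lost their calls.

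**Figure D5:**
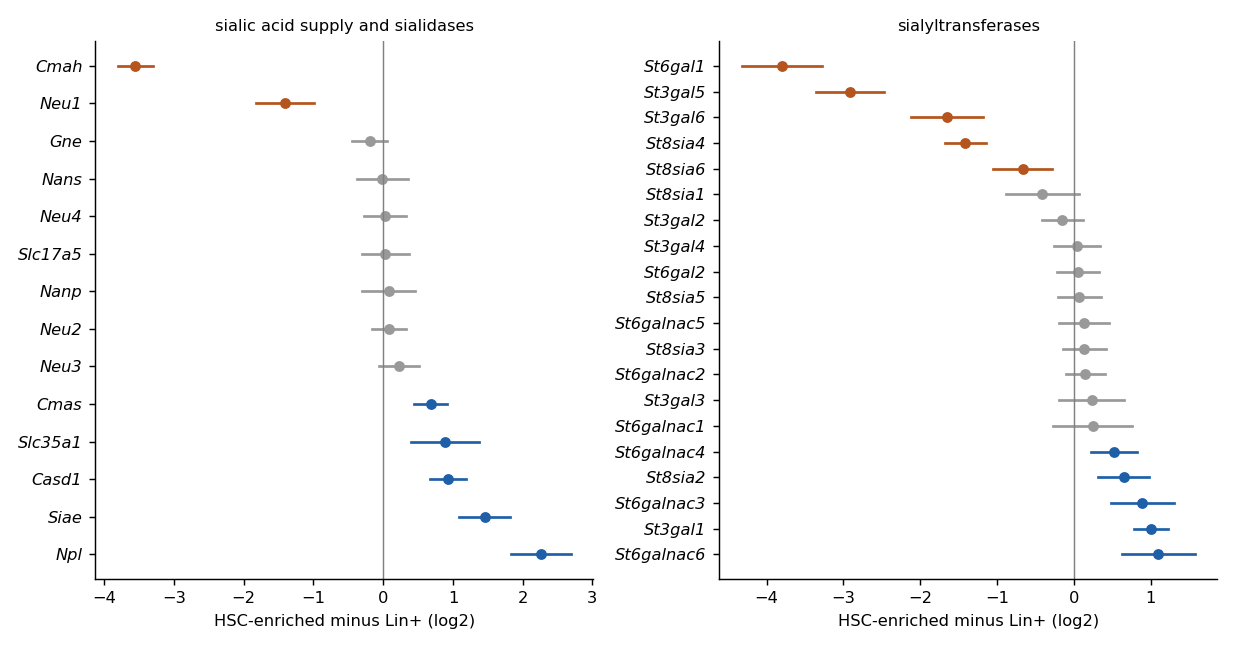
HSC-enriched minus Lin+ difference (log2) with its 95% interval for genes of sialic acid supply, modification and removal (left) and for sialyltransferases (right), coloured orange where lower, blue where higher and grey where not past an adjusted p of 0.05. Cmah and St6gal1 lie farthest to the left, at -3.55 and -3.80, and Npl farthest to the right, at 2.26.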

How the data were processed

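Total RNA was amplified (Ovation Pico), biotinylated and put on Affymetrix MouseGene arrays, per the labels' protocols, which name 2 array versions and do not assign samples to them. The deposited table holds log2 levels of 24973 probe sets on 8 arrays, and the submitters' processing notes list RMA and Partek, with neither versions nor roles. The build behind it is not given in the sources used here, and the scale was read from the values (1.66 to 13.1). Array medians were 5.22 to 5.33. Probe sets were named through a platform table, with symbols updated by Entrez gene ID (RefSeq, GRCm38.p6). Of 24015 named probe sets the brightest of each symbol was kept, which left 24011 genes. RNA amplification and the summary of probes into 1 value compress low levels, so folds of dim genes are uncertain.

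HSC-enriched minus Lin+ differences were tested with limma 3.58.1 (R 4.3.3; 2-group model, no covariates, no filter on low values), with Benjamini-Hochberg adjustment over all genes and a threshold of 0.05. The fit was tested on simulated data. The Siglec genes and all lists were chosen with earlier results of these data known. Named genes were, in each pathway list, the called genes that rose most (at most 3) and fell most (at most 3) and the brightest uncalled ones (at most 2), in each marker list the 2 largest differences, and for each Siglec called and changed at least 2-fold the 3 named genes nearest in pattern. List genes not matched to a probe set were not analysed here. Alternatives were other normalizations, filters, probe set means, variance models, the replicate number as a block and fits without each single array. A fit without both HSC-enriched replicates 3 and 4 was chosen after seeing the data.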

Additional observations from a re-analysis of the deposited data

Results flagged for a closer look

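In 9 of the 148 groups of 4 arrays of the named genes, the highest or lowest array stood apart from the other 3 by a gap that filled most of the group's range (Dixon's ratio, at its 95% critical value), where chance gives about 1 in 20 groups. Among Siglec genes this was Siglecf on HSC-enriched replicate 1, at 4.42 against 5.05 to 5.14. Among genes of the pathway it was Cmah on HSC-enriched replicate 3 (4.90 against 4.53 to 4.58), Pilrb2 on HSC-enriched replicate 2 (4.82 against 4.26 to 4.30), Spn on HSC-enriched replicate 4 (9.36 against 9.55 to 9.57), St3gal4 on HSC-enriched replicate 1 (7.48 against 7.18 to 7.21) and St6gal1 on Lin+ replicate 1 (8.89 against 8.72 to 8.74). The remaining ones were Cxcr3 on HSC-enriched replicate 1 (5.24 against 5.67 to 5.69), Irf8 on Lin+ replicate 3 (8.88 against 9.15 to 9.20) and Mpo on Lin+ replicate 1 (10.84 against 11.28 to 11.36).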

How the results depend on the processing

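All 8 Siglec genes kept their direction and their side of the threshold under each of the 17 alternatives run, with differences of -5.49 to -4.37 for Siglece, -4.94 to -4.06 for Cd33 and -1.18 to -0.86 for Siglecf. With the replicate number as a block, 7 Siglec genes were lower, as before, and 2743 and 3379 genes were lower and higher among all genes. No sign of pairing by replicate number was seen: deviations of same-numbered arrays correlated at -0.15, 0.06, 0.03 and -0.10. Each deviation is from a mean of only 4 arrays, so these values cannot show that the samples were unpaired. With the filter at the median 5 eosinophil markers were lower, since 3 were no longer tested. Without HSC-enriched replicates 3 and 4, the partners of Siglec signalling that were higher numbered 0 and the sialyltransferases that were higher 3; Socs3 (0.87) lost its call, with fewer arrays. Leaving out single arrays gave 0 to 22 pairs of Siglec genes past the threshold, and 0 to 1 osteoclast markers called higher. The count of 0 came without Lin+ replicate 4, where 15 pairs had an unadjusted exact p under 0.05. Without Lin+ replicate 1, 2 or 3, 17 pairs did, and all 17 passed the adjustment. The smallest exact p was 0.029 in each case, and its adjusted value depends on how many pairs reach it (0.053 for 15 and 0.047 for 17). The count of 0 thus rests on 15 in place of 17 such pairs. Why they were fewer was not tested. The number of arrays limits precision, and in HSC-enriched cells 4 of the 8 Siglec genes averaged no more than the background guide.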
